A study of Homo sapiens with 2 samples.

Results

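The collagen genes were examined in U87 glioma cells in which HOXD9 was silenced. U87 is an established human glioblastoma line, and HOXD9 encodes a homeodomain transcription factor. Collagen genes were taken as all genes whose symbol is COL, a number, the letter A and a number. Of 19775 genes named on the array, 43 met this rule, and they were read by 112 of 54613 probe sets, a probe set being a group of short probes for 1 transcript. COL17A1 is the only other human gene with such a symbol in RefSeq and was not analysed here. The data were 1 Affymetrix U133 Plus 2.0 array of U87 cells transfected with HOXD9 siRNA-2 and 1 of U87 cells transfected with a control siRNA. Both siRNAs were given at 50 nM with Lipofectamine RNAiMAX, and RNA was taken on Day 2. There was 1 array for each siRNA, so replicate error is unknown, nothing was tested between the siRNAs, and a ratio describes 2 arrays of 1 cell line. Signals are per amount of total RNA, in which fewer cells with a transcript and less of it per cell cannot be told apart.

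Collagens are secreted proteins of the extracellular matrix in which chains with a repeating glycine pattern wind around each other into a helix. Fibrillar collagens form the banded fibers that resist tension, type IV collagen forms the sheet of the basement membrane, and type VI collagen forms beaded filaments near cells. The other collagens decorate fibrils, form short networks or anchoring fibrils, or span the plasma membrane. In normal brain tissue collagen is largely limited to the vessel walls and the meninges, whereas cultured glioma cells can make it themselves.

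Values are the deposited linear signals, and ratios are log2 of HOXD9 siRNA-2 over control siRNA. A gene is represented by its brightest probe set, provided that its signals averaged at least 19.8, which is the median over all probe sets and is called the signal filter. The median signal was 18.3 on the HOXD9 siRNA array and 22.5 on the control siRNA array. The 11624 genes above the filter had a median log2 ratio of -0.25. Centering each array on its median adds 0.30 to every log2 ratio, so a ratio near -0.3 is that of a typical probe set. Background was taken from 27 probe sets for Bacillus subtilis transcripts, the highest of which read 18.4 on the HOXD9 siRNA array and 11.4 on the control siRNA array. The 18.4 served for both arrays. HOXD9 itself gave 5.58 on the HOXD9 siRNA array against 19.7 on the control siRNA array on its brighter probe set, and 11.4 against 9.33 on the other, so only 1 of its 4 signals lay above background. Of the mesenchymal markers, VIM and FN1 were above background on both arrays on all of their probe sets and CD44 on 12 of 13. The glial and neural stem genes were divided. NES was above background on both arrays on 2 of 2 probe sets, whereas GFAP, S100B, OLIG2 and SOX2 were so on none of their 11. PTPRC (blood cells) and KRT5 (epithelium) were not above background on both arrays on any probe set, and PECAM1 (endothelium) was on 1 of 5.

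U87 cells had collagen signals of every class. In all, 20 of the 43 collagen genes had a probe set above background on both arrays, or 46.5%, against 56.8% of all named genes. A further 2 were above it on the HOXD9 siRNA array alone (COL5A3 and COL10A1), 3 on the control siRNA array alone (COL4A3, COL9A2 and COL18A1), and 18 on neither. By class, 6 of 11 fibrillar genes, 4 of 6 basement membrane genes, 3 of 5 beaded filament genes and 7 of 21 other collagen genes were above background on both arrays. The 18 genes at background on both arrays had 39 probe sets, with signals from 0.419 to 14.0 on the HOXD9 siRNA array and from 0.196 to 13.7 on the control siRNA array. They included COL2A1, the cartilage collagen, COL3A1, the partner of type I collagen in elastic tissues, and COL4A4, COL11A1 and COL14A1.

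**Figure D1:**
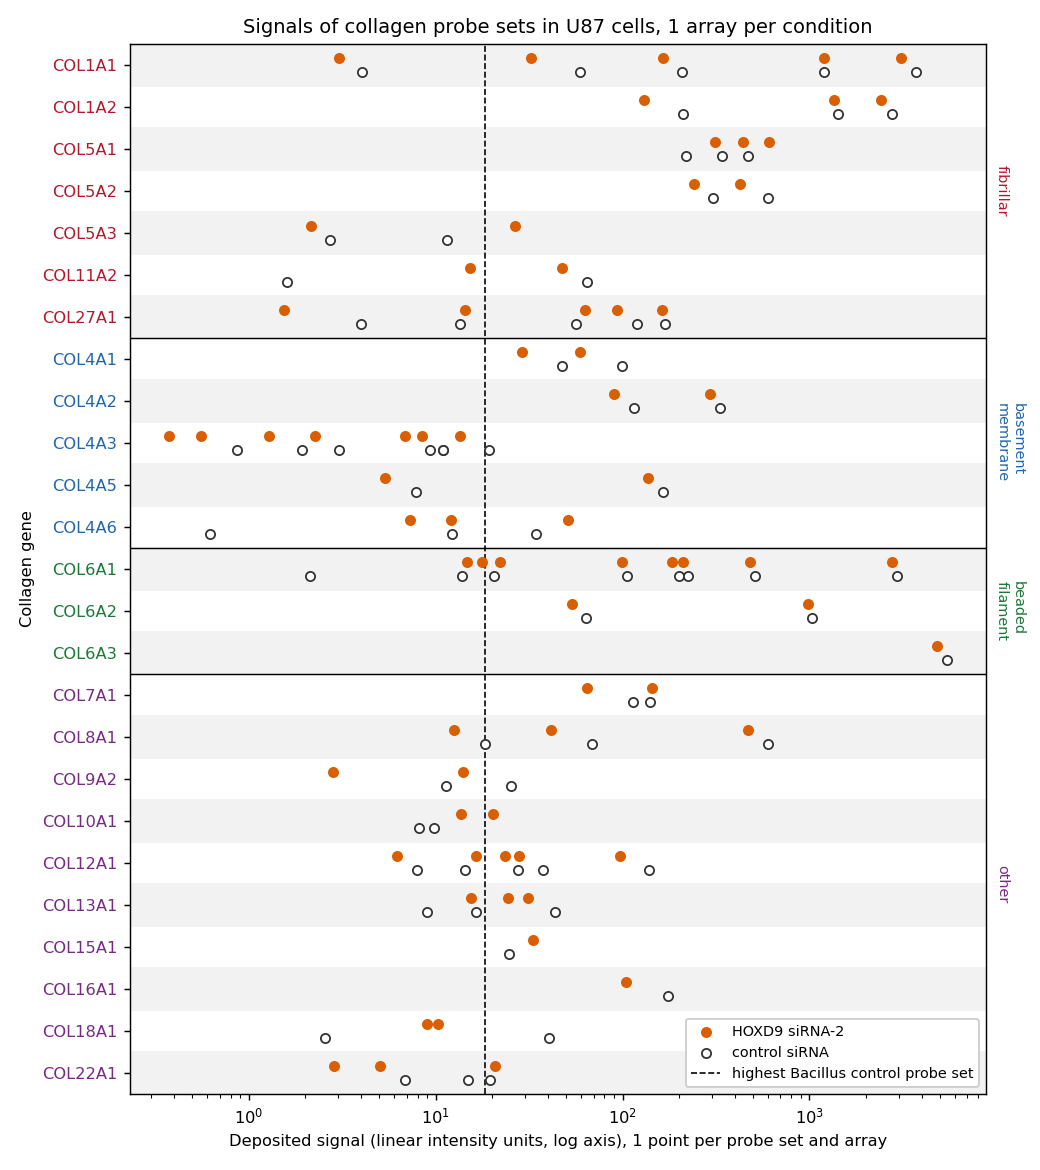
Deposited signal (x axis, linear intensity units on a log axis) of every probe set of the 25 collagen genes (y axis) with a probe set above background on at least 1 array, for HOXD9 siRNA-2 (orange) and control siRNA (open). The dashed line marks the 18.4 of the highest Bacillus control probe set. For COL1A1, COL6A1 and COL6A3 the points of the brightest probe set lie close together far to its right. Dimmer probe sets of COL1A1 and COL6A1 reach the line or lie to its left. COL18A1 has a control siRNA point of 40.4 to the right of the line and no HOXD9 siRNA-2 point there.

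Differences between the arrays were small for most collagen genes. Of the 20 collagen genes above the signal filter whose signals both lay above background, 0 passed 2-fold downward and 0 upward, where 3.42% of all 11201 such genes were lower and 0.116% higher. The filter was also passed by COL18A1, but through its control siRNA signal alone. With it, 1 of 21 collagen genes had a measured ratio past 2-fold, where 4.95% of all genes above the filter were lower and 0.516% higher. The HOXD9 siRNA signal of COL18A1 lay within the background, so its ratio is known only as a bound, which stayed past 2-fold as deposited and not once each array was centered. Centering left 2.31% of all genes lower and 1.17% higher by their measured ratios. Without the filter, measured ratios passed 2-fold downward in 3 of the 43 collagen genes and upward in 5, against 15.7% and 8.93% of all genes. By probe set, 44 for collagens passed the filter, of which 2 (COL18A1 and COL7A1) were more than 2-fold lower and 0 higher, against 6.69% and 0.615% of all that passed it. The median log2 ratio of the 21 genes was -0.19 (0.11 after centering) against -0.25 (0.05) for all genes above the filter. As deposited 16 of the 21 were below 0 and 5 above it, whereas after centering 8 were below and 13 above, so the arrays give the collagen genes as a whole no direction that is free of the scaling. In place of replicate error, the spread between the probe sets for a single gene can be given. Its pooled SD on the log2 scale was 0.41 across 6081 genes and 0.34 across the 13 collagen genes with more than 1 probe set above the filter. The SD over all genes was 0.63 where signals averaged under 72.7, 0.28 from there to 241, and 0.17 at 241 or above, where it was 0.10 across 5 collagen genes. This spread holds no difference between cultures or hybridizations.

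**Figure D2:**
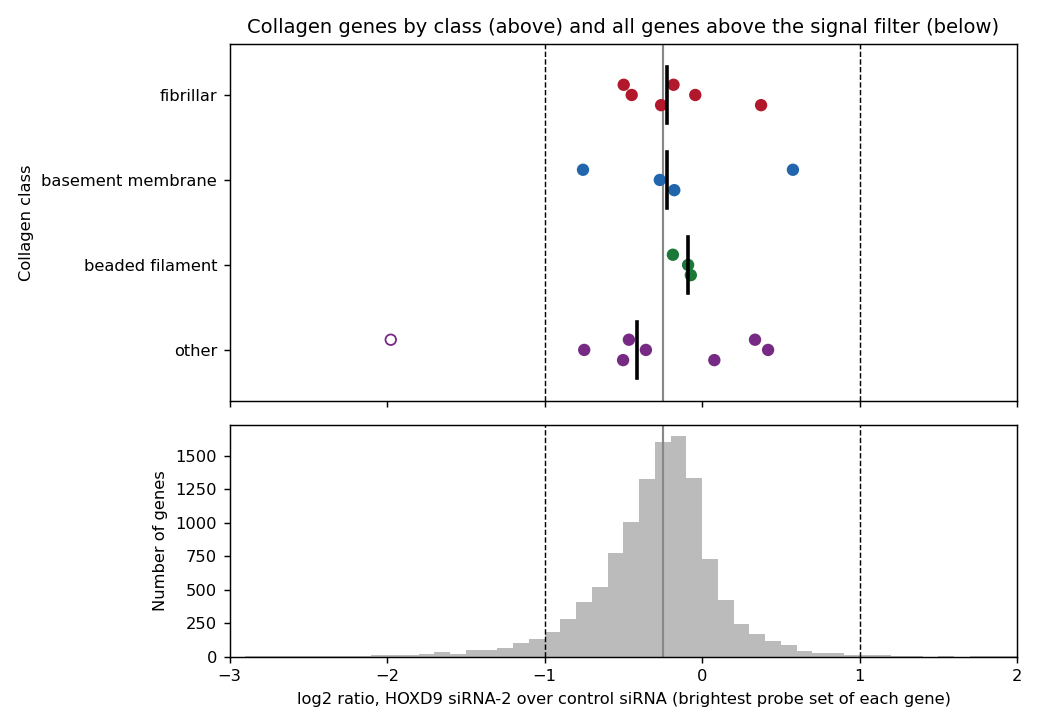
Log2 ratio on the x axis (HOXD9 siRNA-2 divided by control siRNA) for the 21 collagen genes above the signal filter, 1 point per gene, by class (y axis, upper panel), and the number of all genes above the filter in bins of that ratio (y axis, lower panel). Black bars mark the class medians, the gray line the median of all genes (-0.25) and dashed lines 2-fold. No collagen gene with both signals above background lies beyond a dashed line, the open point is the measured ratio of COL18A1, of which only a bound is known, and 14 genes below -3 and 10 above 2 lie outside the lower panel.

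Type I collagen, the main fibrillar collagen, was bright and differed little. COL1A1, which encodes its alpha 1 chain, gave signals of 3087 with HOXD9 siRNA-2 and 3700 with control siRNA on its brightest probe set, a log2 ratio of -0.26. Another COL1A1 probe set gave 1196.5 and 1199, a log2 ratio of -0.0029. The dimmer ones gave 165 with HOXD9 siRNA-2 against 207 with control siRNA and 32.3 against 59.4, log2 ratios of -0.33 and -0.88. The ratio was thus lowest on the dimmest of the 4 probe sets above the filter. COL1A2, the alpha 2 chain that joins COL1A1 in the same molecule, gave 2425.5 with HOXD9 siRNA-2 and 2752 with control siRNA on its brightest probe set (log2 ratio -0.18). Its others gave 1350.4 against 1426 (-0.08) and 131 against 210 (-0.68). On the brightest probe sets the log2 ratio of COL1A1 minus that of COL1A2 was -0.09 to -0.08 over the 4 scalings, smaller than the spread between probe sets.

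Type V collagen, which seeds and limits the width of type I fibrils, had chains that differed in sign. As deposited, COL5A1 was the only collagen gene with several probe sets above the filter that all read higher with HOXD9 siRNA-2. After centering, all such probe sets of COL6A1 and COL6A2 were above 0 too. The signals of COL5A1 were 611 with HOXD9 siRNA-2 and 471 with control siRNA on the brightest probe set (log2 ratio 0.37). They were 442 and 342 on the next (0.37), and 311 and 218 on the last (0.51). COL5A2, its partner chain, gave 427 with HOXD9 siRNA-2 and 604 with control siRNA (-0.50) and 240.6 against 304 (-0.34). The ratios of these 3 and 2 probe sets did not overlap, but how often this occurs between other genes of the arrays was not counted. On the brightest probe sets COL5A1 lay 0.87 above COL5A2 on the log2 scale, or 0.87 to 0.88 over the scalings. This is larger than the SD of 0.17 between bright probe sets of 1 gene, taken over all genes. That SD is for single probe sets, and a difference between 2 of them varies more. The 0.10 of bright collagen probe sets includes those of COL5A1 and COL5A2, so it is no separate measure. Centering put COL5A1 at 0.67 and COL5A2 at -0.20, both within 2-fold. COL5A3, the remaining type V chain, was above background with HOXD9 siRNA-2 alone (26.5 against 11.5) and was at least 1.44-fold higher with that siRNA, its other probe set reading 2.16 and 2.71. The control siRNA signal of 11.5 lay just above the 11.4 that the control transcripts reached on its own array.

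The remaining fibrillar genes were dimmer. COL27A1, a fibrillar collagen known from cartilage, gave 163 with HOXD9 siRNA-2 and 168 with control siRNA, 93.9 against 119, and 63.2 against 56.6 (log2 ratios -0.04, -0.34 and 0.16), so its probe sets fell on both sides of 0. COL11A2, a minor chain of cartilage fibrils, gave 47.2 with HOXD9 siRNA-2 and 64.3 with control siRNA on the 1 probe set above background (-0.45). COL2A1, COL3A1, COL11A1 and COL24A1 were at background on both arrays. COL3A1 was so on all 5 of its probe sets, with no signal above 2.38 on the HOXD9 siRNA array or 5.06 on the control siRNA array. Over the 6 fibrillar genes above the filter the median log2 ratio was -0.22 (0.08 after centering), with a range from -0.50 to 0.37.

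**Figure D3:**
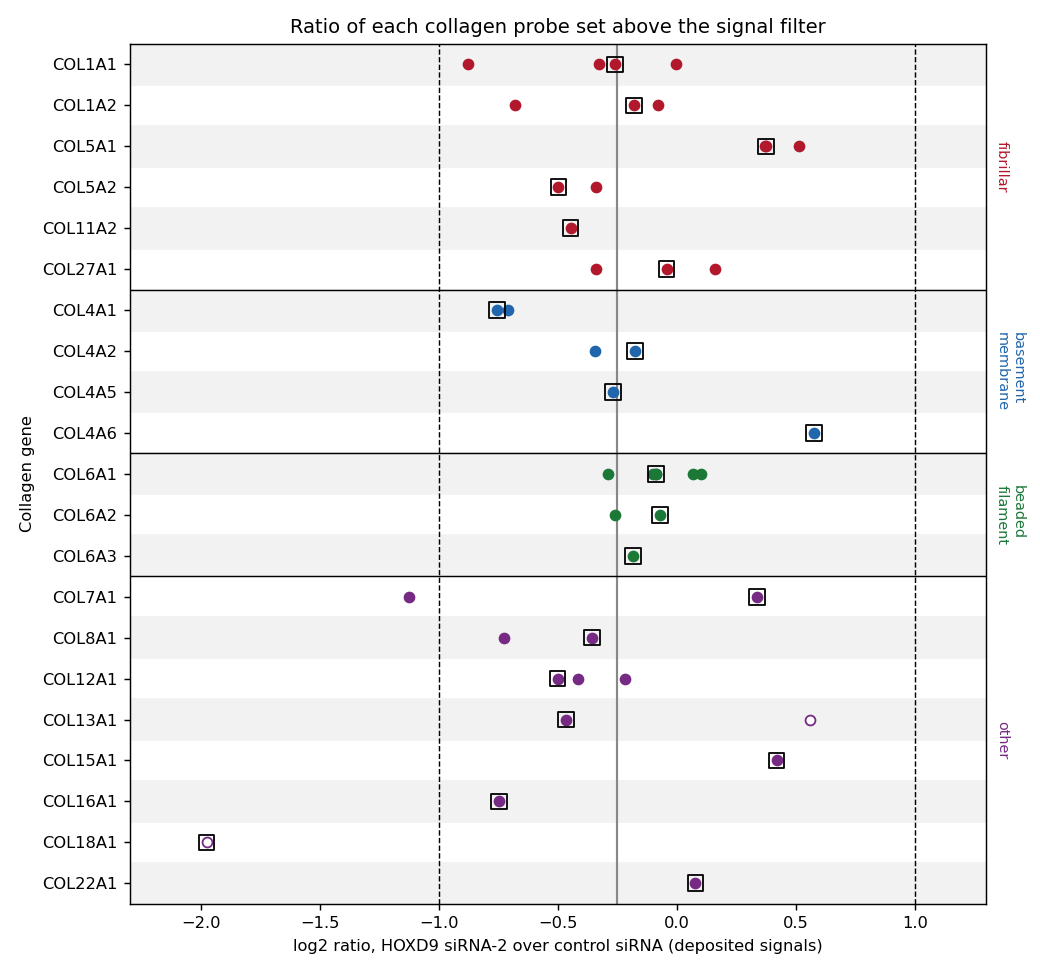
Log2 ratio on the x axis (HOXD9 siRNA-2 divided by control siRNA) for the 44 collagen probe sets above the signal filter, by gene and class (y axis). Squares mark the brightest probe set of a gene, open circles probe sets with 1 signal within the background, the gray line the median of all genes (-0.25) and dashed lines 2-fold. The points of COL5A1 lie to the right of 0 and those of COL5A2 to its left, those of COL6A1 lie between -0.29 and 0.10, and COL7A1 has points at -1.13 and 0.34.

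The 6 genes of type IV collagen stand in the genome as 3 neighboring pairs, each pair with its starts head to head, so that 1 stretch of DNA lies upstream of both. COL4A1 and COL4A2 encode the chains found in nearly all basement membranes, COL4A3, COL4A4 and COL4A5 those of the kidney filter, and COL4A5 and COL4A6 those of smooth muscle and skin. In U87 cells both genes of the first pair and both of the last were above background on both arrays, and neither gene of the COL4A4 and COL4A3 pair was. Because the genes of a pair share this stretch while their ratios differed, the sequence before the starts of the detected pairs is shown, from RefSeq (GRCh38.p14), 5′ to 3′. Capitals mark the letters CCAAT and GGGCGG (the CCAAT box and GC box), TATAAA (the TATA box) and TTTAT (a core of sites preferred by HOX proteins of the Abdominal-B kind), searched on both strands with no overlap between the matches. The stretch for COL4A1 and COL4A2 lies at chr13:110307158-110307283 and is printed on the strand of COL4A2. It holds all 126 bases between the starts. That for COL4A6 lies at chrX:108439459-108439708 on the minus strand, and that for COL4A5 at chrX:108439588-108439837 on the plus strand. These are the 250 bases before each start, and 121 of them are shared.
COL4A1 and COL4A2: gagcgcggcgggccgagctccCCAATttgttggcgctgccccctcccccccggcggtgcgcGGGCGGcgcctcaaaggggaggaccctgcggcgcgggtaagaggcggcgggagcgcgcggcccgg
COL4A6: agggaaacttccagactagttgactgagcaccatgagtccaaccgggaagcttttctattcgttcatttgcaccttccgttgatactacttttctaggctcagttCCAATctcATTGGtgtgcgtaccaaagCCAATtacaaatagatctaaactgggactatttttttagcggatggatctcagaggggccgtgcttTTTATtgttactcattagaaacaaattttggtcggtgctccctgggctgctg
COL4A5: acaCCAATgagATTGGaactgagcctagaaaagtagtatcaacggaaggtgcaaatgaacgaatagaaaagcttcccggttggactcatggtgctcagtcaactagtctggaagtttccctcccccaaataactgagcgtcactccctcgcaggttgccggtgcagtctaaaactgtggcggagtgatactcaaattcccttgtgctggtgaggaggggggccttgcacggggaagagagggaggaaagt

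The stretch between COL4A1 and COL4A2 had a G and C content of 80.2% and held 1 CCAAT and 1 GGGCGG. Of the 126 bases before 35116 starts in RefSeq, 21.1% held CCAAT and 34.6% GGGCGG. The 250 bases before COL4A6 were 44.0% G and C with 3 CCAAT and 1 TTTAT, and those before COL4A5 51.2% with 2 CCAAT, which are the facing pair in the shared part. Among all stretches of 250 bases, 32.0% held CCAAT, 32.7% TTTAT, 42.6% GGGCGG and 10.7% TATAAA. None of the 3 stretches held TATAAA. These matches describe letters and not bound sites.

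COL4A1 read lower than its neighbor COL4A2. COL4A1 gave 59.1 with HOXD9 siRNA-2 and 99.8 with control siRNA on its brighter probe set (log2 ratio -0.76) and 28.9 against 47.4 on the other (-0.71). COL4A2 gave 292 with HOXD9 siRNA-2 and 330.4 with control siRNA (-0.18) and 90.2 against 115 (-0.35). Both genes read lower on both probe sets. The pairs of ratios did not overlap, but how often this occurs between other genes of the arrays was not counted. On the brightest probe sets the log2 ratio of COL4A1 minus that of COL4A2 was -0.58 to -0.53 over the scalings. This difference was larger in size than the SD of 0.28 between probe sets at the signal of the COL4A1 probe set, which averaged 79.4. That SD is for single probe sets, and a difference between 2 of them varies more. The other COL4A1 probe set averaged 38.1, in the signal range where the SD was 0.63. After centering COL4A1 stood at -0.46 and -0.41 and COL4A2 at 0.12 and -0.05, so a lower value for COL4A2 did not hold on its brighter probe set.

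COL4A6 and COL4A5 differed in sign. COL4A6 gave 51.1 with HOXD9 siRNA-2 and 34.3 with control siRNA on its only probe set above background, a log2 ratio of 0.58, the highest of the 21 genes. COL4A5 gave 136 against 164 on its only such probe set, a log2 ratio of -0.27, that of a typical gene. The difference was 0.85, or 0.84 to 0.86 over the scalings, from 1 probe set of each gene. The COL4A6 probe set averaged 42.7, in the signal range where probe sets of 1 gene had a SD of 0.63. COL4A3 was above background on 1 of 7 probe sets and on the control siRNA array alone, at 2.27 with HOXD9 siRNA-2 and 19.2 with control siRNA. It was at least 1.04-fold lower with HOXD9 siRNA-2, and this bound vanished after centering, quantile normalization and loess, when both signals lay within the background. COL4A4 stayed within the background on all 3 probe sets. The 4 basement membrane genes above the filter had a median log2 ratio of -0.22 (0.08 after centering) and ranged from -0.76 to 0.58.

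Type VI collagen, whose 3 main chains assemble into 1 molecule and then into beaded filaments, had the narrowest range of ratios of the 4 classes. It also had the fewest genes above the filter, at 3, and fewer genes tend to give a narrower range. Their brightest probe sets averaged well above 241, where probe sets of 1 gene varied least. COL6A1 gave 2754 with HOXD9 siRNA-2 and 2931 with control siRNA on its brightest probe set, a log2 ratio of -0.09. Its other 5 probe sets above background gave 481 against 511, 211 against 201, 183 against 224, 99.0 against 106, and 22.0 against 20.5. All 6 ratios lay from -0.29 to 0.10. COL6A2, its neighbor on chromosome 21, gave 978 with HOXD9 siRNA-2 and 1028 with control siRNA (-0.07) and 53.4 against 64.1 (-0.26). COL6A3, the longest chain of the molecule, gave 4808 with HOXD9 siRNA-2 and 5470.0 with control siRNA on its single probe set (-0.19). The brightest probe sets of the 3 chains thus spanned -0.19 to -0.07, or 0.11 to 0.23 after centering, where the sign turned for all 3. After quantile normalization and loess COL6A3 was again below 0, at -0.06 and -0.05, and COL6A1 and COL6A2 were not. COL6A5 and COL6A6, chains that can take the place of COL6A3, were within the background on both arrays.

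The 8 other collagen genes above the filter had a median log2 ratio of -0.41 (-0.11 after centering), and the 7 with both signals above background ranged from -0.75 to 0.42. COL18A1, a multiplexin of basement membranes whose end fragment is endostatin, gave 10.3 with HOXD9 siRNA-2 and 40.4 with control siRNA. Since 10.3 lay within the background, the deposited values bound the difference, with COL18A1 at least 2.20-fold lower. This bound became 1.78-fold after centering, 1.76-fold after quantile normalization and 1.78-fold after loess, short of 2-fold under each. The other COL18A1 probe set read 8.96 and 2.55, both within the background. COL15A1, the other multiplexin, gave 33.1 with HOXD9 siRNA-2 against 24.8 with control siRNA on its single probe set, a log2 ratio of 0.42.

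Collagens that sit on the surface of fibrils (the FACIT group) were above background on both arrays in 3 of 10 genes. COL16A1, a FACIT collagen that integrins bind, gave 104 with HOXD9 siRNA-2 and 175 with control siRNA on its single probe set, a log2 ratio of -0.75 (-0.45 after centering). COL12A1, which lies along type I fibrils, gave 97.4 against 138 (-0.50), 28.1 against 37.5 (-0.42) and 23.6 against 27.4 (-0.22). COL16A1 and COL12A1 thus read lower on every probe set above the filter as deposited, but 1 of the 3 for COL12A1 stood at 0.08 after centering. COL22A1 was barely above background, at 20.7 with HOXD9 siRNA-2 and 19.6 with control siRNA, and its other 2 probe sets were within it. COL9A2, a chain of a cartilage FACIT, gave 14.0 with HOXD9 siRNA-2 and 25.3 with control siRNA, at least 1.37-fold lower as deposited and 1.12-fold once centered.

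Probe sets of 1 gene ran in opposite directions in COL7A1 and COL13A1. COL7A1, the collagen of the anchoring fibrils of skin, gave 144 with HOXD9 siRNA-2 and 114 with control siRNA on its brighter probe set (0.34), and 64.7 against 141 on the other (-1.13). The second is the only collagen probe set with both signals above background that was past 2-fold, and after centering it stood at -0.83. COL13A1, a transmembrane collagen, gave 31.4 with HOXD9 siRNA-2 and 43.3 with control siRNA on its brightest probe set (-0.47), and was at least 1.32-fold higher on another with signals of 24.3 and 16.5. The probe sets of COL8A1, a short-chain collagen of vessel walls, ran the same way, at 471 against 603 (-0.36) and 41.3 against 68.4 (-0.73). COL10A1, the short-chain collagen of growth plate cartilage, gave 20.3 with HOXD9 siRNA-2 and 8.14 with control siRNA and was at least 1.10-fold higher.

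Of the 13 collagen genes with more than 1 probe set above the filter, 8 were below 0 on all of them as deposited, 1 was above 0 on all (COL5A1) and 4 were mixed. After centering 3 were below 0 on all, 3 above 0 on all and 7 mixed. Of 63 collagen probe sets within the background on both arrays, 38.1% had measured ratios past 2-fold, either way, compared with 50.6% of 23567 such probe sets on the arrays as a whole. Ratios of that kind, such as those of COL4A6 at 7.28 and 0.620 or COL11A2 at 15.3 and 1.60, are not read as differences here.

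Neighboring collagen genes were alike in detection in some cases and not in others. COL5A2 was above it, while its neighbor COL3A1 was within it on both arrays. COL6A1 and COL6A2 were both above it, and the neighbors COL6A5 and COL6A6, and COL19A1 and COL9A1, were all within it. Promoter windows (250 bases before to 50 after a start) were in the table of RefSeq promoters used here for 31 of the 43 genes. The median G and C content of these windows was 64.8% in 14 genes above background on both arrays and 66.7% in 17 others, with ranges of 46.8% to 79.3% and 37.9% to 82.0% that largely overlapped. Among the genes above background on both arrays, COL1A1, COL1A2, COL5A2, COL6A1, COL8A1 and COL22A1 had no window in that table.

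The genes that make, export and cross-link collagen were mostly above background and, like the collagens, differed little. Over 7 lists with 57 genes on the array, 45 were above the signal filter, as were 58.8% of all named genes. Of the 45, 1 was lower by more than 2-fold and 0 higher, against 4.95% and 0.516% of all genes. By probe set, 84 passed the filter, with 4 past 2-fold downward and 1 upward by their measured ratios. Of all probe sets that passed it, 6.69% were lower and 0.615% higher. The median log2 ratio of the 45 genes was -0.20 (0.10 after centering), against -0.25 (0.05) for all genes. In the list of modifying enzymes and chaperones 15 of 16 genes were above the filter. None was past 2-fold, and all 15 lay below 0 as deposited but 3 after centering. SERPINH1, the collagen chaperone HSP47, gave 799 with HOXD9 siRNA-2 and 824 with control siRNA (log2 ratio -0.04). P4HB, a subunit of prolyl 4-hydroxylase, had log2 ratios of -0.40 to -0.25 on 3 probe sets, and PLOD2, a lysyl hydroxylase, of -0.15 and -0.09. The largest ratios of the list were those of P3H2 and P3H3, prolyl 3-hydroxylases, at -0.58 and -0.46, with PLOD3 at -0.31 and P3H1 at -0.27.

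Lysyl oxidases, which cross-link collagen fibers, had the highest median of the 7 lists. Their 4 genes above the filter lay at 0.05 (LOX), 0.05 (LOXL1), -0.0035 (LOXL2) and -0.07 (LOXL3), with a median of 0.02 (0.32 after centering). These genes were bright, and so was GAPDH, at -0.02 (0.28 after centering) on its brightest probe set. Centering can raise bright probe sets more than loess does, as for COL6A3 at 0.11 and -0.05. Values after loess are not given for the lists. LOX gave 2677 with HOXD9 siRNA-2 and 2588 with control siRNA as its highest signals. The 8 genes for export of procollagen from the endoplasmic reticulum had a median of -0.31 (-0.01 after centering). SEC24D, a COPII coat protein needed for collagen export, was lowest at -0.75, with -0.75 and -0.32 on its other probe sets, followed by SEC23A at -0.63, SAR1B at -0.54 (its 5 probe sets ran from -1.54 to -0.05) and KLHL12 at -0.36.

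ADAMTS3, a procollagen N-proteinase, was the 1 gene of the 7 lists past 2-fold. It gave 20.8 with HOXD9 siRNA-2 and 41.8 with control siRNA on its single probe set, a log2 ratio of -1.01 that stood at -0.71 after centering. The 20.8 lay close to the background of 18.4, and both signals were in the range where the SD between probe sets was 0.63. BMP1, the C-proteinase, had -0.12, and PCOLCE and PCOLCE2, which enhance it, -0.05 and -0.23. Among 6 collagen receptors above the filter, with a median of -0.40 (-0.10 after centering), the integrin chains ITGA2, ITGA10, ITGA1 and ITGB1 had -0.72, -0.50, -0.45 and -0.34. The dimmer ITGA2 probe set read 123 with HOXD9 siRNA-2 and 305 with control siRNA, a log2 ratio of -1.31. MRC2, an endocytic collagen receptor named here after its values were seen, ran the other way, at 0.03 on its brighter probe set and at least 2.82-fold higher on the other, which read 51.9 with HOXD9 siRNA-2 and 10.6 with control siRNA. Collagenases and gelatinases had a median of -0.17 (0.13 after centering), with MMP2 at -0.21, MMP9 at -0.50, MMP1 at 0.36 and CTSK at -0.17. MMP1 and MMP9 were near background. MMP1 read 24.7 with HOXD9 siRNA-2 and 19.3 with control siRNA, and MMP9 27.0 and 38.2. Of the partners of type IV collagen in the basement membrane, NID2 had -0.44, SPARC -0.07 and AGRN 0.11, while HSPG2, NID1 and PXDN did not pass the filter. The probe sets of AGRN disagreed, with a dim one at 14.0 with HOXD9 siRNA-2 and 30.2 with control siRNA, at least 1.64-fold lower.

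**Figure D4:**
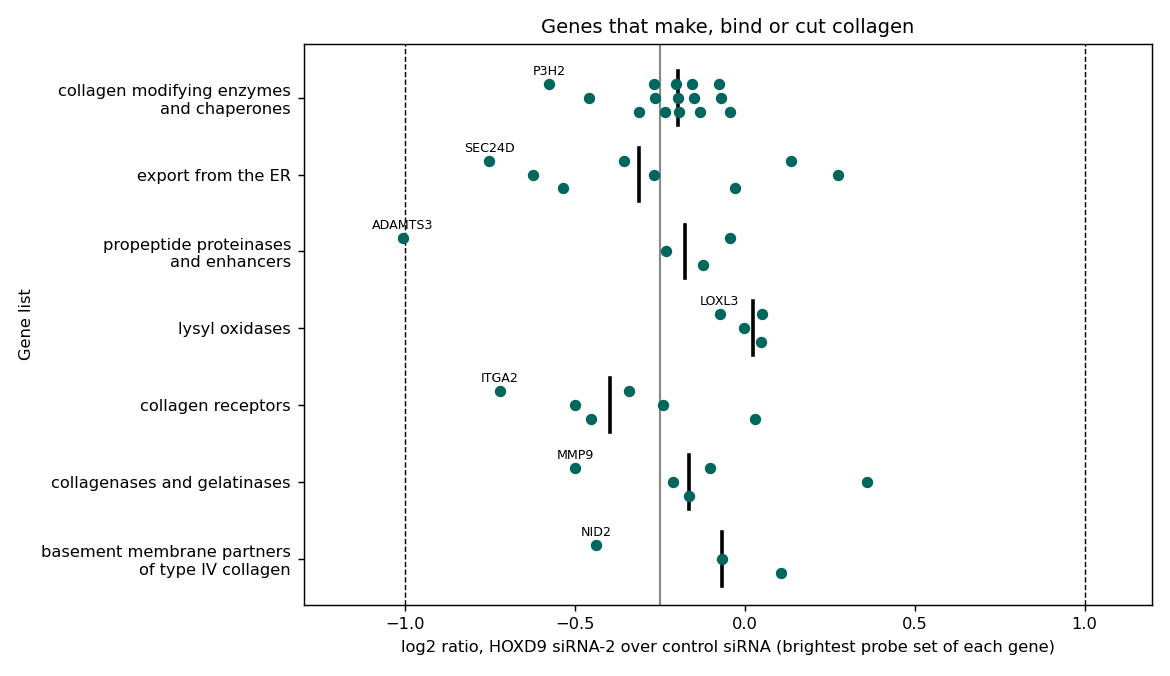
Log2 ratio on the x axis (HOXD9 siRNA-2 divided by control siRNA) for the 45 genes above the signal filter in 7 lists of genes that modify, export, process, cross-link, bind or degrade collagen or join it in the basement membrane (y axis), 1 point per gene. Black bars mark list medians, the gray line the median of all genes (-0.25), dashed lines 2-fold, and the lowest gene of each list is named. ADAMTS3 at -1.01 is the only point past 2-fold, and the 4 lysyl oxidases lie between -0.07 and 0.05.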

How the data were processed

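RNA of U87 cells was measured on 1 Affymetrix U133 Plus 2.0 array per condition. The authors deposited an intensity on a linear scale for each probe set of each array. The submitters' processing notes name GCOS, the paper's methods name GeneSpring, and how arrays were scaled was not given in the sources used here, nor were detection calls. After 62 control probe sets were set aside, log2 ratios were computed for 54613 probe sets. Of these 41091 were annotated to 1 gene, 1801 to several and 11721 are unnamed here, and 41037 matched RefSeq (GRCh38.p14) by Entrez gene number. All collagen genes above background on an array were named, with up to 4 genes of largest ratio per list. Members, classes and lists were chosen with earlier results of these data known. Fold differences of a signal above background over one within it are given as bounds against 18.4. The number of arrays limits the precision, and the 2-fold threshold is the paper's. The procedure was tested on simulated data. Computation was in Python 3.11.15 with statsmodels 0.14.6 (loess), pandas 2.3.3 and numpy 2.4.6.

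The alternatives were centering, quantile normalization, removal of a loess trend (fraction 0.3), no signal filter, a filter at the 70th percentile (75.7), averaged probe sets, omission of _x_at and _s_at probe sets, a floor at the 20th percentile, both signals above background (added after seeing the data), and other background limits.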

Additional observations from a re-analysis of the deposited data

How the results depend on the processing

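No paired analysis was possible because each condition had 1 array, and for the same reason none could be left out. Without the signal filter more of the 43 collagen genes passed 2-fold, 3 of them lower and 5 higher, where 15.7% and 8.93% of all genes did. With the filter at the 70th percentile, or without _x_at and _s_at probe sets, 0 were lower, since COL18A1 was then not among the genes, and so it was with both signals required above background, a choice made after seeing the data. The count above background on both arrays was 19 to 21 over 3 alternatives and 16 without _x_at and _s_at probe sets, against 20. Class medians moved by less than the 0.41 between probe sets of a gene. Of 177 values of single genes 3 moved by more, namely COL7A1 (-0.40) and COL13A1 (0.05) with probe sets averaged and COL1A2 (-0.68) without _x_at and _s_at probe sets. Many of the 177 could not move that far. Each gene kept its brightest probe set and its value with no filter, the 70th percentile filter, the floor or both signals above background. Centering adds 0.30 to every ratio, which is under 0.41. A value that moved by less could still change sign, as COL6A1 did from -0.09 to 0.21 after centering. Signals near background and 1 array per condition limit all values.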
